A study of Mus musculus with 14 samples.

Results

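Corneal stromal cells grown as myofibroblasts, the contractile cells of corneal scars, were compared with the adult corneal stroma they came from. The comparison rests on 6 of the 14 arrays of the series, 3 of myofibroblast culture and 3 of adult stroma. All probe sets other than controls were taken when their mean signal was 50 or more in either group. That left 9942 of 12488 probe sets, which stood for 7198 of the 8251 genes measured by a probe set of 1 gene.

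All samples came from CD-1 mice, for which the labels give no transgene or deletion, and each array was hybridised with target made from 5 µg of total RNA. Myofibroblast cultures were stromal cells of mice aged 7 to 8 weeks, grown in DMEM with 10% fetal bovine serum and 10 ng/ml TGF-beta1 (spelled TGF-bate 1 in the labels). Fibroblast cultures (3 arrays) and keratocyte cultures (3 arrays) came from mice of the same age, and their labels give no TGF-beta1. Fibroblast cultures had the same serum as myofibroblast cultures, and keratocyte cultures had 1% platelet-poor horse serum in place of the fetal bovine serum. Adult stroma was dissected from mice of 7 to 8 weeks. A further 2 arrays of stroma at postnatal day 10 entered only the estimate of the spread. The cultures were primary, and the labels do not say how long they were grown or whether the replicates came from separate animals or cultures, so the p-values measure only the spread between these arrays. Between myofibroblast culture and adult stroma the culture itself, the serum and TGF-beta1 differ together and cannot be told apart.

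In the intact cornea keratocytes are quiet, flattened cells between sheets of thin collagen fibrils. They hold keratan sulfate proteoglycans, which keep the fibrils evenly spaced, and large amounts of soluble enzymes, the corneal crystallins, which are linked to the clarity of the tissue. After injury, TGF-beta acts through its receptors and SMAD proteins, and stromal cells can become myofibroblasts. These cells assemble smooth muscle actin into stress fibres, pull on the wound through focal adhesions and secrete collagen, fibronectin and cross-linking enzymes, and the scar they leave can be opaque.

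Signals are on a linear scale with a floor of 1. Control probe sets for bacterial and yeast transcripts had a median of 42.19 and a 95th percentile of 137.7, and a mean signal at or below that percentile is called within background here. Where 1 group's mean was within background, the size of a difference is given as at least N-fold, computed from the background limit. Other differences are on the scale of log2(signal + 16), myofibroblast culture minus adult stroma, with the standard error (SE), and a gene was called at an adjusted p below 0.05 in limma's test over all 9942 probe sets. In each list below the members that were not measured by a probe set of 1 gene were not analysed here.

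Adult stroma replicate 1 stood apart in RNA quality. The ratio of 3' to 5' signal of Gapdh, which rises as RNA degrades, was 0.756 to 0.819 in myofibroblast culture and 2.12, 0.908 and 1.04 in adult stroma. The same ratio of Actb was 1.07 to 1.16 in myofibroblast culture, against 4.05, 1.49 and 1.77 in adult stroma. Log2 signals correlated at 0.929 to 0.962 between myofibroblast arrays, at 0.879 to 0.930 between adult arrays and at 0.583 to 0.656 between the groups. Added control transcripts averaged 1022 to 1605 in myofibroblast arrays and 2182 to 2750 in adult arrays. The adult arrays also held signal of other tissues of the eye. The summed signal of the 37 measured corneal epithelium markers was 2505 to 2856 in myofibroblast culture, against 42887 to 51978 in adult stroma. Fewer cells of a type and less RNA per cell cannot be told apart in such bulk samples.

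Of all probe sets tested, 34.2% were called: 1792 were higher in myofibroblast culture and 1608 were lower. With a fit of these 2 groups alone and without adult stroma replicate 1, 1883 were called. Over genes, 18.1% were called higher and 16% lower, and the median difference of all genes was -0.01. These shares are the background against which the lists below are read. Without adult stroma replicate 1, in the fit of all groups, the counts higher and lower were 8 and 1 for the collagens, 15 and 2 for the matricellular proteins, 14 and 4 for the contractile genes and 7 and 9 for the stromal genes described below. The 12 genes with the highest fitted log2 difference and arrays that did not overlap were all within background in adult stroma, where the fitted size depends on the floor and gives no order of size. They were Ptgs2, Ccn2, Ccr8, Lox, Chil1, Kcnq1, Acta2, Timp1, Col8a1, Fgf17, Fxyd5 and Cyp1b1. Ptgs2, the inducible enzyme of prostaglandin synthesis, had 1718, 997 and 1269.6 in myofibroblast arrays and 4.63, 1 and 1 in adult arrays, at least 9.4-fold higher (adjusted p = 1.09e-09). A second Kcnq1 probe set was called lower, so that gene has no settled direction. The 12 with the lowest fitted difference, all within background in myofibroblast culture and so without an order too, were Aldh3a1, Col17a1, Gsta4, Perp, Psca, 2610528A11Rik, Sfn, Itgb4, Plet1, Hspa1a, Krt14 and Cldn7. Of these, Col17a1, Perp, Psca, Sfn, Itgb4, Krt14 and Cldn7 were on the list of corneal epithelium markers.

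**Figure D1:**
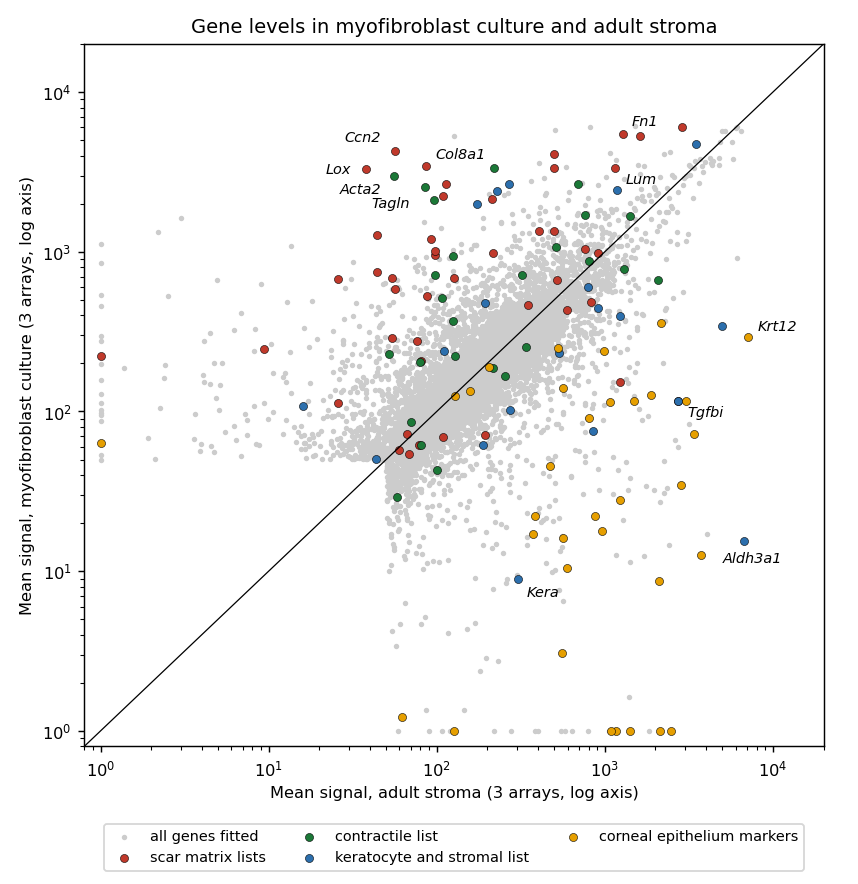
Mean signal of each gene in myofibroblast culture (vertical axis) and adult stroma (horizontal axis), 3 arrays each, on log axes. Grey points are all 7198 genes fitted, colours mark gene lists and the line marks equal levels. Most of the matrix genes lie above the line and most epithelial markers lie below it, while contractile and stromal genes lie on both sides.

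The scar matrix was higher in myofibroblast culture, and the rise was uneven over the collagen chains. Col8a1, Col11a1, Col5a1, Col3a1 and Col5a2 rose, named here without an order of size. The chains of type I collagen rose on top of a high level in the tissue, and Col11a2 fell. Fibronectin, tenascin C, Ccn2, Fbln2 and the cross-linking enzyme Lox rose together with them. Tgm2, Tgfbi and vitronectin went the other way.

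Of 17 genes on the list of fibrillar and fibril-associated collagens 14 were measured, and all 14 passed the level filter. 8 were called higher in myofibroblast culture, 1 lower and 5 neither way, with a median log2 difference of 1.26. Col1a1, a chain of type I collagen and of the main fibril of the stroma, had 6834, 5766 and 5562 in myofibroblast arrays and 2815, 2926 and 2904 in adult arrays. Every myofibroblast array was above every adult array, with a log2 difference of 1.06 (SE 0.11, adjusted p = 4.02e-06). Its partner chain Col1a2 averaged 5342 ± 387 in myofibroblast culture and 1609.9 ± 315 in adult stroma (SD, n = 3 each), a difference of 1.74 (SE 0.15, adjusted p = 8.46e-07). For both chains a second, dimmer probe set was not called, with log2 differences of 0.07 for Col1a1 and -0.36 for Col1a2.

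Col3a1, the type III chain that is abundant in wounds, had 1035, 1085 and 756 in myofibroblast arrays and 67.7, 139 and 87.7 in adult arrays. The groups did not overlap, and the gene was at least 6.85-fold higher in myofibroblast culture (adjusted p = 0.000201). Type V collagen limits the width of fibrils, and its chain Col5a2 had 4567, 3576 and 4109 in myofibroblast arrays and 669, 448 and 380.4 in adult arrays, a log2 difference of 3.02 (SE 0.21, adjusted p = 6.66e-08). The other type V chain, Col5a1, differed by 3.29 (SE 0.25, adjusted p = 1.51e-07). Col8a1, a short-chain collagen of Descemet's membrane and of vessel walls, had 3271, 2730.4 and 4357 in myofibroblast arrays, against 84.7, 101 and 73.2 in adult arrays. It was near background in the tissue and among the brighter genes of the culture, at least 24.6-fold higher (adjusted p = 2.77e-10). The type XI chains parted: Col11a1 averaged 671 ± 104 in myofibroblast culture and 26 ± 10.1 in adult stroma, at least 4.83-fold higher (adjusted p = 8.34e-08), whereas Col11a2 averaged 487 ± 45.5 and 824 ± 70.5 in the same order and fell by 0.74 on the log2 scale (SE 0.18, adjusted p = 0.00575). The type VI chains, which form beaded filaments between fibrils, did not move as a unit. Col6a3 rose by 1.46 (SE 0.43, adjusted p = 0.0179), a call lost without adult stroma replicate 3 or myofibroblast replicate 1 (adjusted p up to 0.0875), while Col6a1 differed by 0.09 and Col6a2 by -0.48 with adjusted p = 0.784 and 0.177. Col12a1, Col14a1 and Col2a1 were within background in both groups.

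Of 25 genes on the list of fibronectin and matricellular proteins 21 were measured and passed the filter. 15 were called higher, 3 lower and 3 neither way, and the median log2 difference was 2.12. 4 of the 15 passed the filter only through their level in myofibroblast culture. Fn1, fibronectin, on which cells lay down collagen, had 5999, 5092 and 5399 in myofibroblast arrays and 1619.6, 1268 and 946 in adult arrays. The groups did not overlap, with a difference of 2.12 (SE 0.16, adjusted p = 1.28e-07). Ccn2, connective tissue growth factor, a textbook target of TGF-beta, had 4716, 4039.9 and 4156 in myofibroblast arrays and 28.5, 109.9 and 30.1 in adult arrays. All adult values were within background, and the gene was at least 31.2-fold higher in culture (adjusted p = 1.57e-08). Its relatives Ccn4, Ccn1 and Ccn5 were at least 9-fold, 8.55-fold and 1.99-fold higher (adjusted p = 9.13e-09, 1.95e-07 and 7.85e-05). Ccn3 was within background in both groups.

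Tnc, tenascin C, a matrix protein of wounds, averaged 2248 ± 760.3 in myofibroblast culture and 109.7 ± 16.6 in adult stroma, at least 15.7-fold higher (adjusted p = 3.95e-08). Fbln2, a fibulin that binds fibronectin and elastic fibres, was at least 17.3-fold higher (adjusted p = 2.66e-06). Thbs2, a thrombospondin that limits vessel growth, was at least 6.99-fold higher (adjusted p = 1.92e-06), and Mfap5, of microfibrils, at least 5.11-fold (adjusted p = 1.22e-07). Against fibroblast culture, however, Thbs2 was lower (means 1006 and 2660, log2 difference -1.39, SE 0.30, adjusted p = 0.0478). Postn, periostin, had 1267, 537 and 1147 in myofibroblast arrays and 178, 281 and 191 in adult arrays, without overlap (log2 difference 2.04, SE 0.35, adjusted p = 0.000408). Sparc, which binds collagen and guides its assembly, rose by 1.58 (SE 0.20, adjusted p = 2.28e-05). Eln, the elastin precursor, averaged 680.4 ± 785 in myofibroblast culture and 54.1 ± 10.6 in adult stroma, and its arrays overlapped (adjusted p = 0.0672).

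The members that fell were Tgfbi, Vtn and Ccn3, and the call for Ccn3 was lost without adult stroma replicate 1 or 3 or myofibroblast replicate 2 or 3 (adjusted p up to 0.124). Tgfbi is an adhesive matrix protein made in large amounts by the cornea, and in people its mutations cause corneal dystrophies. It had 175, 113 and 62 in myofibroblast arrays, against 2851, 2663 and 2711 in adult arrays, and was at least 18.4-fold lower in culture (adjusted p = 1.28e-07) although it is named for its induction by TGF-beta in other cells. Vtn, vitronectin, was at least 1.39-fold lower (adjusted p = 7.51e-05).

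Collagen needs hydroxylation, chaperoning and cross-linking, and 11 of 16 listed genes for these steps were measured. 8 were called higher, 1 lower and 2 neither way, with a median log2 difference of 1.74. Lox, lysyl oxidase, which starts the covalent cross-links of collagen and elastin, had 3553, 3185 and 3183 in myofibroblast arrays and 63, 17.3 and 33.1 in adult arrays. All adult arrays were within background, and the gene was at least 24-fold higher (adjusted p = 1.43e-10). Serpinh1, the collagen chaperone Hsp47, averaged 3331 ± 371 in myofibroblast culture and 499.6 ± 184 in adult stroma (difference 2.76, SE 0.22, adjusted p = 2.11e-07). The prolyl hydroxylase subunits P4ha1 and P4ha2, which stabilise the triple helix, were at least 4.16-fold and 1.99-fold higher (adjusted p = 2.75e-07 and 3.52e-06). Pcolce, an enhancer of procollagen cleavage, rose by 1.74 (SE 0.27, adjusted p = 0.000198). The cleaving enzyme Bmp1 differed by 0.43 (adjusted p = 0.0934), and its second, dimmer probe set was called higher, by 1.38. Tgm2, which joins glutamine and lysine residues of matrix proteins, had 157, 184 and 117 in myofibroblast arrays and 1529, 1545 and 632 in adult arrays. It was the list's member that fell, by 2.80 on the log2 scale (SE 0.40, adjusted p = 9.27e-05).

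Among matrix proteases and their inhibitors, 19 of 21 measured genes passed the filter. 9 were called higher, none lower and 10 neither way. Among the inhibitors, Timp1, which blocks metalloproteinases, had 6086, 5237 and 4671 in myofibroblast arrays and 136, 101 and 145 in adult arrays. It was at least 37.8-fold higher (adjusted p = 8.36e-12), with no overlap. Timp2 was at least 4.19-fold higher (adjusted p = 3.08e-06) and Timp3 rose by 2.09 (SE 0.36, adjusted p = 0.000445). Of the proteases, the membrane-bound Mmp14 rose by 1.32 (SE 0.21, adjusted p = 0.000211) and the collagen-degrading cathepsin Ctsk by 1.71 (SE 0.31, adjusted p = 0.000725).

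**Figure D2:**
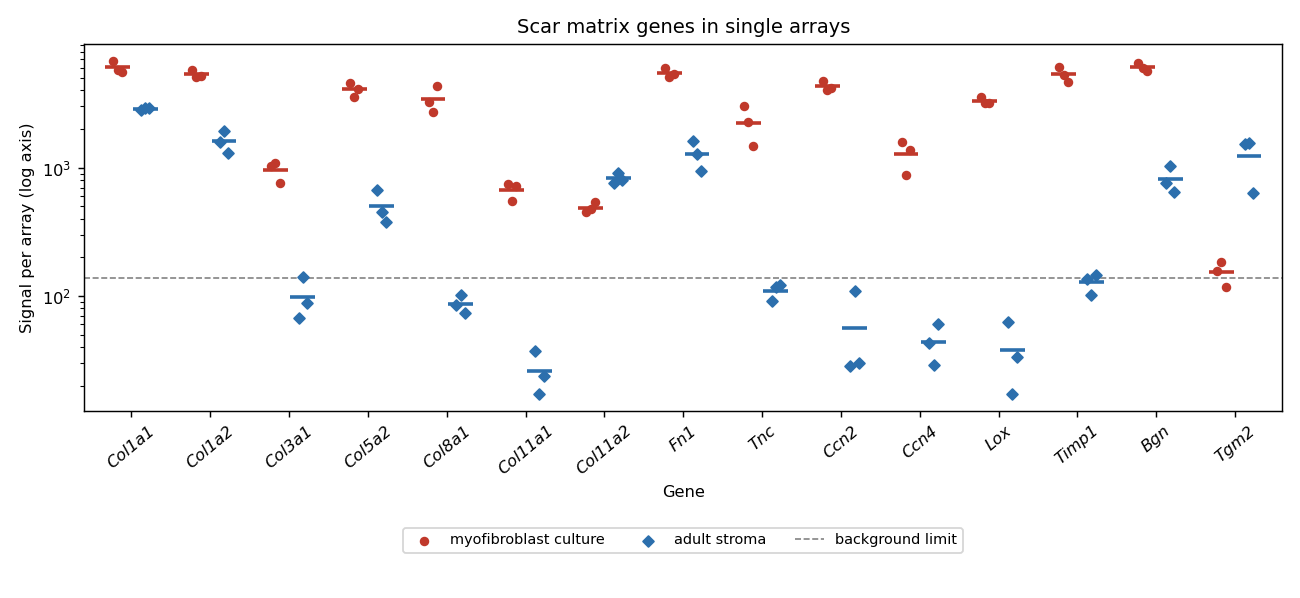
Signal of 15 scar matrix genes on each array, on a log axis: circles are the 3 myofibroblast arrays, diamonds the 3 adult stroma arrays, short lines the means and the dashed line the background limit. The genes are a selection in which groups did not overlap. Other members of the matrix lists did overlap, among them Col6a1, Col6a2, Eln and Bmp1. Col11a2 and Tgm2 lay lower in myofibroblast culture, and the other 13 lay higher.

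More contractile genes were called higher than lower. Smooth muscle actin, transgelin, alpha-actinin 1, tropomyosin 1 and the myosin light chain Myl9 rose strongly. Called lower were Actn4, Des, Flna, which was within background in both groups, and, at the limit of the test, Cnn1. Of 28 listed genes 26 were measured and all passed the filter. 15 were called higher, 4 lower and 7 neither way, with a median log2 difference of 1.09. Over all genes 18.1% were called higher and 16% lower, so the count of lower genes was near the general share.

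Acta2, alpha smooth muscle actin, the defining protein of myofibroblasts, had 3061, 2954 and 2932 in myofibroblast arrays and 39.6, 65 and 63.4 in adult arrays. All adult values were within background, and the gene was at least 21.6-fold higher in culture (adjusted p = 2.39e-07). Tagln, transgelin, which binds actin filaments, had 3011, 2299.7 and 2371 in myofibroblast arrays and 73.9, 88.5 and 94.7 in adult arrays, at least 18.4-fold higher (adjusted p = 3.76e-06). Tpm1, a tropomyosin that lies along the filament, averaged 3354 ± 71.1 in myofibroblast culture and 219 ± 28 in adult stroma (difference 3.85, SE 0.15, adjusted p = 1.63e-10). Actn1, the actinin that cross-links stress fibres, was at least 15.2-fold higher (adjusted p = 5.69e-11). Myl9, the regulatory light chain through which contraction is switched on, had 638, 774 and 744 in myofibroblast arrays and 90.7, 93.8 and 107 in adult arrays. The groups lay far apart, and Myl9 was at least 5.2-fold higher in culture (adjusted p = 2.95e-06). The calponins Cnn2 and Cnn3, the tropomyosin Tpm4 and Vcl, vinculin, which ties actin to adhesions, also rose. Cnn2 was at least 6.32-fold higher (adjusted p = 9.08e-07), and Vcl averaged 1078 ± 313 in myofibroblast culture and 515 ± 94.3 in adult stroma (difference 1.02, SE 0.22, adjusted p = 0.0023). The actins Acta1, Actc1 and Actg2 were called higher as well, but actin coding sequences are near-identical and their probe sets may share targets with Acta2. The call for Acta1 was lost without adult stroma replicate 1 and without either myofibroblast replicate 2 or 3 (adjusted p up to 0.096).

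Actn4, the actinin also found at cell edges and in epithelia, had 667, 615 and 703 in myofibroblast arrays and 2298, 2324 and 1571 in adult arrays. It was lower on every myofibroblast array and fell by 1.60 on the log2 scale (SE 0.19, adjusted p = 1.23e-05). Des, desmin, the intermediate filament of muscle, averaged 167 ± 17.8 in myofibroblast culture and 256 ± 36.7 in adult stroma, and fell by 0.57 (SE 0.15, adjusted p = 0.0103). Flna, filamin A, was within background in both groups. Cnn1, calponin 1, a marker of differentiated smooth muscle, had 974, 506 and 853 in myofibroblast arrays and 894, 1825 and 1187 in adult arrays. Its arrays overlapped, and its call (adjusted p = 0.0487) was lost when any of 4 arrays was left out, namely adult stroma replicates 2 and 3 and myofibroblast replicates 2 and 3 (adjusted p up to 0.209). Mylk, myosin light chain kinase, averaged 254 ± 65.5 in myofibroblast culture and 339 ± 92.8 in adult stroma and was not called (adjusted p = 0.258). Myh11, the smooth muscle myosin, and Tpm2 were within background in both groups, and the non-muscle myosin Myh9 differed by 0.23 (adjusted p = 0.387).

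**Figure D3:**
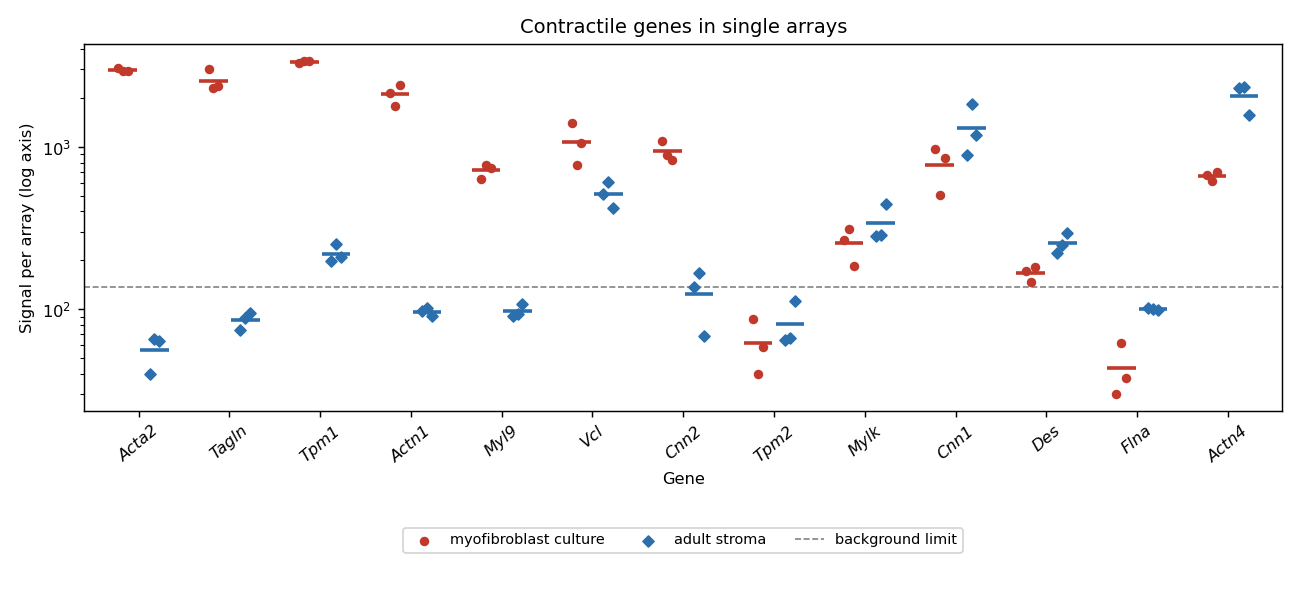
Signal of 13 contractile genes on each array, on a log axis: circles are the 3 myofibroblast arrays, diamonds the 3 adult stroma arrays, short lines the means and the dashed line the background limit. The 7 genes from Acta2 to Cnn2 lay higher on every myofibroblast array, while Tpm2, Mylk and Cnn1 overlapped and Des, Flna and Actn4 lay lower.

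Many smooth muscle genes carry a CArG box, a sequence of 10 bases bound by serum response factor, which acts with actin-sensing partner proteins and so links these genes to the state of the actin skeleton. RefSeq promoters (GRCm38.p6, 250 bases before to 50 after the start, both strands, since the box reads the same in form on each) were searched for it. Of the 26 contractile genes 22 had a promoter in the table, and 6 of them (27.3%) held a box: Acta1, Actc1, Cnn2, Myl6, Myl9 and Vcl. Over all genes with a promoter in the table the share was 1.81%. None of the promoters in the table for the collagen list (9 genes), the matricellular list (13 genes) or the stromal list (13 genes) held one. At a share of 1.81% lists this short would mostly hold none, so their lack of a box sets no contrast. The 6 boxes are shown because they are the matches behind the 27.3% of the contractile genes. Of these genes 5 were called higher in culture and Myl6 was not (adjusted p = 0.555), and among the 5 Acta1 lost its call without any 1 of 3 arrays and Acta1 and Actc1 may share targets with Acta2, as given above. Capitals mark the box, and each stretch runs 5′ to 3′ on the strand of its gene.
Myl9: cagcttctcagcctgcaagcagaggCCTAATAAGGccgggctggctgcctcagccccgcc
Cnn2: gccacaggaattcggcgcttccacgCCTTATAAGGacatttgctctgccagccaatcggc
Vcl: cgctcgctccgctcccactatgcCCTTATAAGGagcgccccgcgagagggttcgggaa
Actc1: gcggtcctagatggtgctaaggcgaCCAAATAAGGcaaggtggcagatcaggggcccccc
Acta1: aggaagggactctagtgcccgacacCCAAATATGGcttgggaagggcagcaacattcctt
Myl6: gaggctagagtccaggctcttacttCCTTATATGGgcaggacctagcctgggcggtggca

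The stretch of Myl9 was chr2:156775278-156775337 (+ strand), that of Cnn2 chr10:79988519-79988578 (+ strand) and that of Vcl chr14:20929148-20929205 (+ strand). The stretch of Actc1 was chr2:114052888-114052947 (- strand), that of Acta1 chr8:123894814-123894873 (- strand) and that of Myl6 chr10:128493025-128493084 (- strand). All lie upstream of the gene's annotated start, with the box beginning 161 bases before it in Myl9, 56 in Cnn2, 227 in Vcl, 47 in Actc1, 73 in Acta1 and 50 in Myl6. The promoter windows of Acta2, Tpm1, Actn1 and Cnn1 held no match to these letters, which says nothing of serum response factor at those genes. A match is a description of the sequence and was not tested as a site.

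Contractile fibres act through adhesions to the matrix, and 18 of 19 measured genes for focal adhesions and integrins passed the filter. 9 were called higher, 4 lower and 5 neither way. Itgb1, the common beta subunit of collagen and fibronectin receptors, averaged 2616 ± 327 in myofibroblast culture and 906 ± 176 in adult stroma (difference 1.52, SE 0.17, adjusted p = 1.04e-05). Itga5, which pairs with it to bind fibronectin, was at least 1.37-fold higher (adjusted p = 3.38e-06), and Itgb5, which can release active TGF-beta, rose by 1.92 (SE 0.30, adjusted p = 0.00019). Cav1, the caveola protein, and Ilk, integrin-linked kinase, rose by 2.51 and 1.70 (adjusted p = 5.59e-06 and 4.09e-05), although a second probe set of Cav1 and of Itgb5 was not called. The integrin subunits Itgb4 and Itga6, which anchor epithelia through hemidesmosomes, were at least 10.2-fold and 1.83-fold lower (adjusted p = 2.89e-12 and 2.99e-05). Both stand beside the fall of the epithelial markers, whose part in these values was not tested.

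Known TGF-beta responses made up a list of 32 genes, of which 26 were measured and passed the filter. 19 were called higher, 1 lower and 6 neither way, with a median log2 difference of 1.91, and the list shares members such as Acta2, Ccn2 and Fn1 with those above. Most of the 26 were not called between myofibroblast culture and the other cultures, as given below. The ligands Tgfb1 and Tgfb3 were at least 2.79-fold and 2.85-fold higher (adjusted p = 0.000128 and 1.72e-05), and Inhba, a subunit of activin, at least 2.33-fold (adjusted p = 6.83e-06). The receptors Tgfbr1 and Tgfbr2 were within background in both groups. Smad7, the inhibitor that feeds back on the receptor, had 420.4, 292 and 364 in myofibroblast arrays and 69.6, 40.6 and 32.2 in adult arrays, at least 2.58-fold higher (adjusted p = 4.19e-06). Ltbp2, of the latent TGF-beta binding family, was at least 4.33-fold higher (adjusted p = 0.000202). The Id genes, which block basic helix-loop-helix factors, did not move together. Id3 was at least 4.02-fold higher (adjusted p = 1.42e-06), Id1 differed by -0.34 (adjusted p = 0.195), and Id2 averaged 251 ± 127 in myofibroblast culture and 1133 ± 298 in adult stroma and fell by 2.17 on the log2 scale (SE 0.35, adjusted p = 0.000226).

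Several genes on the keratocyte and stromal list were lower in myofibroblast culture, and others were kept or rose. Aldh3a1, Tkt, Tgfbi, Kera and Apod fell, as did Gsta4 of the crystallin enzyme list, while the proteoglycans Lum, Dcn, Fmod and Bgn rose. Of 26 listed keratocyte and stromal genes 22 were measured and 20 passed the filter, Omd and Pdk4 being below it. 7 were called higher, 9 lower and 4 neither way, with a median log2 difference of -0.82. Of the 9 lower genes, 2 passed the filter only through their level in adult stroma, and without a filter the median over the list was -0.20.

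Aldh3a1, the aldehyde dehydrogenase that is the main crystallin of the mouse cornea, had 1, 1 and 44.3 in myofibroblast arrays and 6154, 6745 and 7415 in adult arrays. It was among the brightest genes of the tissue and within background on every myofibroblast array, at least 49-fold lower (adjusted p = 4.2e-05). Tkt, transketolase, another corneal crystallin and an enzyme of the pentose phosphate pathway, had 373, 306 and 356 in myofibroblast arrays and 4838, 4972 and 5209 in adult arrays. The groups lay far apart, and it fell by 3.80 on the log2 scale (SE 0.24, adjusted p = 2e-08). Gsta4, a glutathione transferase that removes products of lipid oxidation, averaged 17.2 ± 19 in myofibroblast culture and 4066 ± 199 in adult stroma, at least 29.5-fold lower (adjusted p = 4.35e-07). Not all soluble enzymes went with them: of 11 measured crystallin enzymes 3 fell, 1 rose (Pgk1) and 7 were not called. Aldh1a1 had 372, 118 and 848 in myofibroblast arrays and 920.0, 1096 and 727 in adult arrays, which overlapped (adjusted p = 0.132).

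Aldh3a1, Tkt and Tgfbi are made in corneal epithelium too, and its markers also fell. Of 43 listed epithelial markers 37 were measured and 34 passed the filter, of which 30 were lower in myofibroblast culture, 1 higher and 3 not called (median log2 difference -3.90). Of the 30, 19 passed the filter only through their level in adult stroma. Krt12, the keratin specific to corneal epithelium, had 283, 273 and 325 in myofibroblast arrays and 6773, 6947 and 7725 in adult arrays. It was bright in every adult array, and fell by 4.53 on the log2 scale (SE 0.14, adjusted p = 1.16e-11). Krt5 was below the filter. The markers Col17a1, Krt14, Itgb4, Cldn7, Psca and Epcam were at the floor on all myofibroblast arrays. Epcam, with a mean of 126 in adult stroma, was within background in both groups. The part of these cells in the falls of Aldh3a1, Tkt, Tgfbi and Gsta4 was not tested against adult stroma. The summed signal of the 37 measured epithelial markers was 2505 to 2856 in myofibroblast, 2499 to 2769 in fibroblast and 2984 to 3070 in keratocyte culture. Within background were 31, 30 and 26 of these 37 markers in the same order. The part of epithelial cells in the differences between the cultures was not tested.

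Aldh3a1 was lower in myofibroblast culture than in either of the other cultures. It had 751, 222 and 3721 in fibroblast arrays and 3778, 125 and 2327 in keratocyte arrays, so the arrays of each group spread widely but all lay above the myofibroblast arrays. With the myofibroblast arrays within background, it was at least 6.2-fold lower than in fibroblast culture (adjusted p = 0.0412) and at least 7.49-fold lower than in keratocyte culture (adjusted p = 0.00969). The first call was lost when fibroblast replicate 1 or 3 or any 1 of the myofibroblast arrays was left out (adjusted p up to 0.151), and the second without keratocyte replicate 1 or 3 (adjusted p up to 0.0603). Tkt averaged 530.1 ± 82.3 in fibroblast culture and 1062 ± 449.8 in keratocyte culture, and its level in myofibroblast culture was lower than in keratocyte culture by 1.50 on the log2 scale (SE 0.24, adjusted p = 0.00198) but not called against fibroblast culture (adjusted p = 0.513). Gsta4 averaged 668 ± 127 in keratocyte culture and was at least 4.79-fold lower in myofibroblast culture (adjusted p = 0.000541). Against fibroblast culture, where it averaged 177, Gsta4 was not called (adjusted p = 0.128).

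Kera, keratocan, a keratan sulfate proteoglycan that marks keratocytes, had 13.1, 4.24 and 9.54 in myofibroblast arrays and 429, 265 and 214 in adult arrays. All myofibroblast values were near the floor, and the gene was at least 2.1-fold lower (adjusted p = 0.00118). In fibroblast arrays it had 48.3, 1.5 and 84.3, and in keratocyte arrays 315, 15.7 and 164, which spanned the background limit, and neither direct difference was called (adjusted p = 0.895 and 0.0818). Apod, a lipid-binding apolipoprotein, was at least 5.98-fold lower than in adult stroma (adjusted p = 0.000514). Gsn, gelsolin, which severs actin filaments, had 375, 219.8 and 590.4 in myofibroblast arrays and 1343, 1517 and 835 in adult arrays, and fell by 1.66 on the log2 scale (SE 0.40, adjusted p = 0.00477). Ptgds, a prostaglandin D synthase, averaged 232 ± 52.4 in myofibroblast culture and 536 ± 123 in adult stroma and fell by 1.15 (SE 0.30, adjusted p = 0.00798). Gas6, a ligand of receptor kinases, and Gpc3, a glypican, were at least 1.95-fold and 1.36-fold lower (adjusted p = 0.000904 and 7.36e-05). Cd34 was within background in both groups.

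Of 8 fitted small leucine-rich proteoglycans 5 were called higher, 1 lower, which was Kera, and 2 neither way. Lum, lumican, whose keratan sulfate chains help to space the fibrils, had 3072, 1857 and 2410.0 in myofibroblast arrays and 1557, 1160.1 and 817 in adult arrays. All myofibroblast arrays lay above the adult ones, with a difference of 1.06 (SE 0.35, adjusted p = 0.0286) that missed the threshold when adult stroma replicate 2 or 3 or myofibroblast replicate 1 or 3 was left out (adjusted p up to 0.118). Dcn, decorin, which carries dermatan sulfate and binds TGF-beta, averaged 4714 ± 418 in myofibroblast culture and 3491 ± 292 in adult stroma (difference 0.43, SE 0.11, adjusted p = 0.00891). Bgn, biglycan, its relative of bone and scar, had 6589.9, 5943 and 5681 in myofibroblast arrays and 762, 1032 and 647 in adult arrays, a wider gap (2.90, SE 0.15, adjusted p = 2.14e-09). Fmod, fibromodulin, rose by 3.30 (SE 0.27, adjusted p = 3e-07). Ogn, osteoglycin, averaged 477 ± 261 in myofibroblast culture and 193 ± 23.9 in adult stroma and was not called (adjusted p = 0.164), though a second, dimmer probe set was called higher. Sod3, the extracellular superoxide dismutase, and Mgp, which blocks calcification, rose by 3.41 and 3.17 (adjusted p = 1.38e-07 and 1.16e-06).

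**Figure D4:**
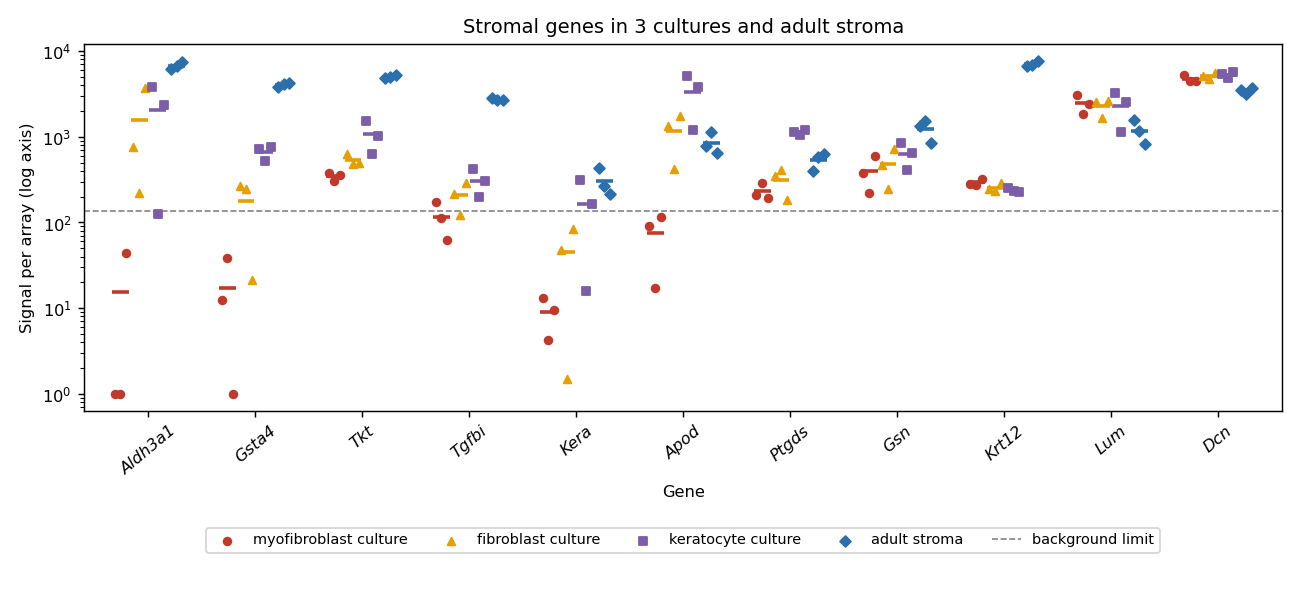
Signal of 11 genes on each array, on a log axis, in myofibroblast, fibroblast and keratocyte culture and in adult stroma (3 arrays each); short lines are means and the dashed line is the background limit. Aldh3a1 was near the floor in myofibroblast culture, spread widely in the other cultures and was 6154 or more on the adult stroma arrays, while Krt12 was similar in all cultures and Lum and Dcn were bright in every group.

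Fibroblast culture had the same serum without TGF-beta1, so setting myofibroblast culture against it varies only the growth factor as far as the labels say, while keratocyte culture differs in the serum too. Few genes were called between the cultures: against fibroblast culture 0.347% of genes were higher and 0.681% lower, and against keratocyte culture 1.13% were higher and 3.81% lower. With the replicate number as a block, in a fit of these 2 groups alone, 208 probe sets were called against fibroblast culture. The fit of all groups, without a block, called 85. The 2 groups alone without the block gave fewer than 85, as given below. The split depended on the scaling: 32.9% of the calls against fibroblast culture were higher, and 44.7% to 46% under other scalings, and 22.1% of those against keratocyte culture, and 43.9% to 47.9% under other scalings. The median difference of all probe sets from keratocyte culture was -0.12. Of the 14 collagens none was called against fibroblast culture and 2 were higher than in keratocyte culture. Of the 26 contractile genes none was called against fibroblast culture, and 2 were lower than in keratocyte culture. The 21 matricellular genes had 1 higher and 1 lower against each culture. Of the 26 TGF-beta responsive genes, 3 were higher than in fibroblast culture and 1, Id3, lower (log2 difference -0.90, adjusted p = 0.0486). Against keratocyte culture 3 of these 26 were higher and 2 lower. Smad7 and Tgfb3 were not called against either culture. Acta2 had 3061, 2954 and 2932 in myofibroblast, 2544, 2954 and 638 in fibroblast and 3066, 3167 and 3347 in keratocyte arrays. It was bright in all 3 cultures, with a log2 difference of 0.81 (SE 0.42) from fibroblast and -0.10 (SE 0.42) from keratocyte culture (adjusted p = 0.739 and 0.936), and the sign of the second turned with 2 other scalings. Ccn2 averaged 4304 ± 361, 2292 ± 1028 and 3729.8 ± 173 in the same order (adjusted p = 0.397 and 0.819), and Fn1 averaged 5497 ± 462, 5115 ± 416 and 4358 ± 235 (adjusted p = 0.976 and 0.271). Lox averaged 3307 ± 213, 2501 ± 195 and 2796 ± 86.7 (adjusted p = 0.796 and 0.627). These p-values do not show that the cultures were alike.

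Some genes did stand out in myofibroblast culture. Ccn4, a matricellular protein of the Ccn2 family, had 1583, 869 and 1384 in myofibroblast, 369.7, 223 and 273 in fibroblast and 334, 261 and 342 in keratocyte arrays, against 42.8, 29 and 60.3 in adult arrays. Every myofibroblast array was the higher, and the log2 difference was 2.07 from fibroblast and 1.95 from keratocyte culture (SE 0.25 each, adjusted p = 0.00105 and 0.000539). Cdkn2b, the cell cycle inhibitor p15, through which TGF-beta halts epithelial growth, averaged 238 ± 65.2 in myofibroblast, 36.2 ± 7.82 in fibroblast and 28.1 ± 2.02 in keratocyte culture, against 111 ± 49.5 in adult stroma. The other cultures were within background, and it was at least 1.68-fold higher than in either (adjusted p = 0.000603 and 0.000101). Skil, a SMAD repressor induced by the pathway it blocks, and Inhba were called higher than in fibroblast culture (adjusted p = 0.0219 and 0.0202). Skil was within background in both, and its call was lost when any of 4 arrays was left out, namely fibroblast replicates 2 and 3 and myofibroblast replicates 1 and 3 (adjusted p up to 0.139). Inhba was at least 2.08-fold higher, a call lost without myofibroblast replicate 2 or 3 (adjusted p up to 0.11). The replicate numbers pair these cultures in their deviations. With them as a block, in a fit of the 2 groups alone, the call for Inhba was lost (adjusted p = 0.0709). Il11, a cytokine of fibrosis, was gained (adjusted p = 0.0751 in the fit of all groups and 0.0138 with the block). Col11a1 averaged 279 ± 135 in fibroblast culture and 262 ± 51.9 in keratocyte culture, and was higher in myofibroblast culture by 1.31 (adjusted p = 0.0552, and 0.0408 with the block) and 1.31 (adjusted p = 0.0174). The call against keratocyte culture was lost without keratocyte replicate 2 or 3 or myofibroblast replicate 1 or 3 (adjusted p up to 0.0673). Chosen after their values were seen, Crabp2, which binds retinoic acid, and Tfpi2, a protease inhibitor of the matrix, were at least 2.76-fold and 1.45-fold higher than in fibroblast culture (adjusted p = 0.000476 and 0.000403), where both were within background. Csrp2, a muscle LIM protein also chosen so, was higher by 1.66 on the log2 scale (adjusted p = 0.00222).

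The genes that were lower in myofibroblast than in the other cultures included secreted inflammatory proteins. Apod had 91.1, 17.4 and 116 in myofibroblast, 1341, 425 and 1755 in fibroblast and 5054, 1198 and 3830.0 in keratocyte arrays, against 770.0, 1126 and 646 in adult arrays. All myofibroblast arrays lay below all others, and the gene, within background there, was at least 7.26-fold and 20.7-fold lower than in the fibroblast and keratocyte cultures (adjusted p = 0.00863 and 0.000203). The chemokines Ccl2 and Cxcl5 and the pentraxin Ptx3 averaged 97.2 ± 42.9, 68.5 ± 51.1 and 89.4 ± 36.6 in myofibroblast culture, against 613 ± 286, 1051 ± 677 and 931 ± 209 in fibroblast culture. All 3 were within background in myofibroblast culture, at least 4.05-fold, 6.52-fold and 6.63-fold lower (adjusted p = 0.00345, 0.00154 and 0.000403). The acute phase protein Saa3 averaged 345 ± 173 in myofibroblast, 1498 ± 228 in fibroblast and 5205 ± 133 in keratocyte culture, against 34.7 ± 5.41 in adult stroma, and was lower than in the fibroblast cultures by 2.17 on the log2 scale (adjusted p = 0.00153). Chosen after their values were seen, Mmp3, stromelysin, averaged 229 ± 184 in myofibroblast, 1427 ± 608 in fibroblast and 2611 ± 256 in keratocyte culture (adjusted p = 0.00926 and 0.000327), and the complement inhibitor Serping1 319 ± 74.4, 1993 ± 565 and 2289.8 ± 661 (adjusted p = 0.000403 and 6.98e-05). Mmp3 and Serping1 averaged 103 and 279 in adult stroma and were not called against it (adjusted p = 0.182 and 0.634). Ccl2 and Cxcl5 were called higher than in adult stroma, although within background in both groups.

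Genes of the secretory pathway were mostly higher. Of 16 fitted genes for folding in the endoplasmic reticulum 14 were called higher, none lower and 2 neither way (median log2 difference 1.15). Hspa5, the main chaperone of that compartment, had 2646, 1539.5 and 1728 in myofibroblast arrays and 800.5, 868 and 620.4 in adult arrays, without overlap (1.33, SE 0.24, adjusted p = 0.000555). Pdia6, which forms disulfide bonds, and Ssr1, of the translocon, rose by 2.13 and 1.77 (adjusted p = 3.52e-06 and 2.61e-05).

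Basement membrane genes moved both ways. 10 of 17 fitted genes were called higher and 5 lower. The type IV collagen chains Col4a1 and Col4a2, which form the network of every basement membrane, rose by 2.54 and 2.69 (SE 0.17 and 0.16, adjusted p = 3.49e-08 and 1.24e-08). Col17a1, Lama3 and Lamb3, which serve the attachment of epithelia, were at least 17.6-fold, 3.13-fold and 1.72-fold lower (adjusted p = 6.19e-13, 3.48e-09 and 3.94e-06). In hyaluronan and glycosaminoglycan synthesis, 6 of 12 genes were called higher and 2 lower, led by Ext1, which builds heparan sulfate (at least 3.9-fold, adjusted p = 2.73e-07).

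Secreted signals were mostly higher than in the tissue. Of 22 fitted chemokines and cytokines 13 were called higher and 3 lower, and 9 of the 13 passed the filter only through their level in myofibroblast culture. Csf1, the growth factor of macrophages, averaged 1304 ± 191 in myofibroblast culture and 353 ± 111 in adult stroma (1.87, SE 0.20, adjusted p = 4.78e-06). Il1rn, which blocks interleukin 1, was at least 3.27-fold higher (adjusted p = 1.28e-07), Cxcl12 at least 2.26-fold (adjusted p = 1.07e-05, with a second probe set not called), and Il18 fell by 0.96 on the log2 scale (SE 0.19, adjusted p = 0.00121). Of 11 fitted genes for insulin-like growth factor signalling, 4 were called higher and none lower. Igfbp2, a binding protein, had 6983, 5136 and 6158 in myofibroblast arrays and 1643, 1694 and 1206 in adult arrays, without overlap and with higher values in myofibroblast culture (adjusted p = 8.31e-08), and the secreted protease Htra1 rose by 2.88 (SE 0.19, adjusted p = 3.93e-08). Of 5 fitted Wnt antagonists, Sfrp1 was at least 3.4-fold lower and Dkk2 at least 1.54-fold higher (adjusted p = 2.39e-06 and 0.00219).

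In antigen presentation and cholesterol synthesis more genes were called lower than higher. Of 20 fitted interferon-induced and class I genes 11 were called lower, 1 higher and 8 neither way (median log2 difference -0.91), and 5 of the 11 passed the filter only through adult stroma. Psmb8, a catalytic subunit of the immunoproteasome, had 20.1, 27.9 and 20.9 in myofibroblast arrays and 452, 482 and 264 in adult arrays, at least 2.8-fold lower (adjusted p = 1.72e-08). Irf1, a factor that drives these genes, fell by 1.46 (SE 0.19, adjusted p = 3.37e-05) and Tapbp, which loads peptides, by 1.22 (SE 0.24, adjusted p = 0.00137), with 1 of its 3 probe sets not called. B2m, the common light chain of class I molecules, was the member that rose, by 1.18 (SE 0.30, adjusted p = 0.00676). Of 13 genes of cholesterol synthesis 5 fell, none rose and 8 were not called, among them Sqle and Hmgcs1, which fell by 1.57 and 1.51 (adjusted p = 0.000198 and 0.00171).

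Most fitted genes of the cell cycle and DNA replication were not called. Of 29, 9 were called higher, 2 lower and 18 neither way (median log2 difference 0.36), beside 18.1% higher and 16% lower over all genes. Cdk1, the mitotic kinase, rose by 1.25 (SE 0.26, adjusted p = 0.00181), while Ccnd1, cyclin D1, averaged 237 ± 122 in myofibroblast culture and 1232 ± 131 in adult stroma and fell by 2.41 (SE 0.40, adjusted p = 0.000296). Mki67, a marker of dividing cells, averaged 238 ± 86.3 and 227 ± 62.2 in the same order and was not called (adjusted p = 0.926). Of 12 cell cycle inhibitors 3 rose and 3 fell, not far from the shares over all genes. Cdkn1b, p27, was lower by 1.34 (SE 0.24, adjusted p = 0.000509). In glycolysis 7 of 13 genes rose and 1 fell. Pkm, pyruvate kinase, rose by 1.59 (SE 0.21, adjusted p = 3.93e-05), and Aldoc, aldolase C, was at least 2.36-fold lower (adjusted p = 4.19e-07).

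Markers of other cell types moved unequally. 6 of 10 fitted lens markers and 11 of 14 retina and photoreceptor markers were called lower, with 1 and 0 called higher. Of the lower ones, 4 lens and 8 retina markers passed the filter only through their level in adult stroma. Crybb2, a lens crystallin, averaged 32.1 ± 3.85 in myofibroblast culture and 1967 ± 339.8 in adult stroma, at least 14.1-fold lower (adjusted p = 4.34e-11). Of 24 macrophage and leukocyte markers 4 were called higher and 6 lower. Of 9 vascular endothelial markers 4 were higher and 1 lower, among the higher Eng, a co-receptor for TGF-beta that fibroblasts can also carry (2.40, SE 0.23, adjusted p = 1.55e-06), while the endothelial Pecam1 averaged 71.4 ± 27.4 in myofibroblast culture and 139 ± 69 in adult stroma (adjusted p = 0.0787). Without adult stroma replicate 1, 2 of the vascular markers were called higher. The counts called higher and lower were 2 and 1 of 9 nerve and Schwann cell markers, 3 and 1 of 12 skeletal muscle markers, 1 and 2 of 9 blood cell markers and 0 and 1 of 5 pigment cell markers, and 3 and 1 of 12 complement and acute phase genes. The part of these cells in the results above was not tested.

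**Figure D5:**
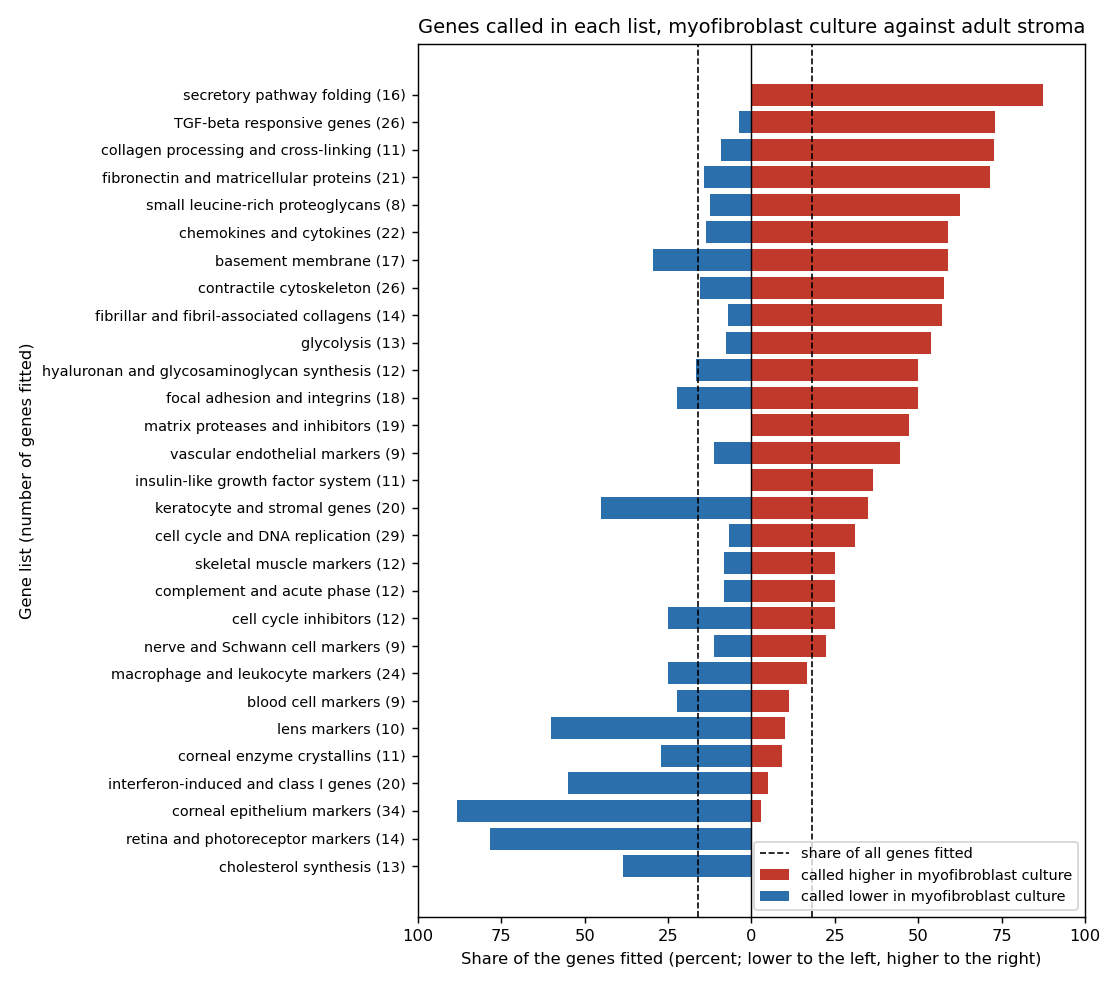
Share of the fitted genes of each list (number in parentheses; lists with 8 or more) called higher in myofibroblast culture (bars to the right) or lower (bars to the left), in percent. Dashed lines mark the shares over all genes, 18.1% higher and 16% lower. Secretory folding, TGF-beta responsive and matrix lists lie far to the right, and epithelial, retina and lens markers far to the left.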

How the data were processed

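Per the labels, RNA was extracted with TRIzol and measured on 1 array per sample, and the deposited intensity values (signals) were scaled by the authors with Microarray Suite 5.0 to a target intensity of 150. Trimmed means (2%) of the columns as deposited were 164.3 to 224.7, so the final scaling is not settled. No detection calls were used. After 66 control probe sets were removed, log2(signal + 16) was fitted over all 14 arrays with R 4.3.3 and limma 3.58.1 (5 groups, 9 residual degrees of freedom), using a variance trend and two-sided tests. P-values were adjusted by Benjamini-Hochberg. The number of arrays limits the precision. Of 12422 probe sets 10833 had 1 symbol, 396 several and 1193 none, and a gene was represented by its probe set of highest mean log2 signal. A bound divides the bright group's mean, on the log scale, by the higher of 137.7 and the dim group's value on each array. On simulated data with 200 of 9942 probe sets changed, 63% of those with a log2 change of 1 and 94% of those with a log2 change of 2 were recovered between myofibroblast culture and adult stroma.

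The 31 gene lists, the members and the comparisons were chosen with earlier results of these data known. Named genes were a fixed set, the 12 highest and 12 lowest fitted log2 differences among called genes whose arrays did not overlap, up to 5 genes per direction by adjusted p from each list with 3 or more calls, and members against the direction of their list. Named beyond this rule, after their values were seen, were Fbln2, Col6a3, Col6a1, Col6a2, Ccn5, Thbs2, Sparc, Eln, Pcolce, Bmp1, Timp3, Mmp14, Ctsk, Cnn3, Tpm4, Vcl, Actc1, Mylk, Myh11, Myh9, Myl6, Itgb5, Ilk, Tgfb1, Tgfb3, Inhba, Tgfbr1, Tgfbr2, Smad7, Ltbp2, Id3, Id1, Epcam, Gas6, Skil, Ccl2, Cxcl5, Hspa5, Tapbp, Pecam1, Mmp3, Serping1, Crabp2, Tfpi2, Csrp2, Hspa1b, Dbp, Adh1, Lgals1, S100a4, Aebp1, Pdgfrb, Wnt5a, Vegfa, Nes, Klf6, Col12a1, Col14a1 and Col2a1. Same-numbered arrays of myofibroblast and fibroblast culture deviated together (correlations 0.538 to 0.691), so that comparison was repeated with the replicate number as a block. Every fit with a replicate block used only the 2 groups compared. With adult stroma (0.059 to 0.192) and keratocyte culture (0.0756 to 0.42) the numbers did not pair. Alternatives were other added constants, filters, scalings, variance estimates, thresholds and covariates, the 2 groups alone, a gene taken as the median of its probe sets, and each array left out in turn. One more, the 2 groups without adult stroma replicate 1, was added after seeing the data. Promoters came from RefSeq (GRCm38.p6).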

Additional observations from a re-analysis of the deposited data

How the results depend on the processing

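Against adult stroma, 189 of 251 named genes kept their direction and their side of the threshold under every alternative run, and 62 did not under at least 1. The 3400 probe sets called (1792 higher and 1608 lower in myofibroblast culture) became 2206 at an adjusted p below 0.01 (1007 lower), 1773 with a 2-fold minimum (995 higher and 778 lower) and 1883 with the 2 groups alone and adult stroma replicate 1 left out (1067 higher and 816 lower). With array quality weights 2724 were higher, and with the Gapdh ratio as a covariate 1041 were lower. Leaving out 1 array gave 2729 to 3533 calls, 1344 to 1797 higher and 1225 to 1825 lower. The 4 contractile genes called lower became 2 at the stricter p, with the 2-fold minimum, with the 2 groups alone and with the replicate block, and 1 with the 2 groups alone and adult stroma replicate 1 left out. The 1 collagen called lower became 0 with the 2-fold minimum and 2 with array quality weights. The share of calls that were higher was 52.7%, and 51.8% to 52.9% under other scalings.

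Against fibroblast culture the 85 probe sets called became 36 at the stricter p, 13 with the 2 groups alone and 208 with the replicate block (71 higher and 137 lower), and leaving out 1 array gave 40 (without myofibroblast replicate 3) to 105. Against keratocyte culture the 484 became 195 at the stricter p, 306 with the 2-fold minimum, 2379 with array quality weights and 1338 with the replicate block. Leaving out 1 array gave 200 to 528: 200 and 202 without keratocyte replicate 3 and 1, and 320 and 285 without myofibroblast replicate 2 and 3. The share of calls that were higher was 32.9% against fibroblast culture and 44.7% to 46% under other scalings. Against keratocyte culture it was 22.1%, and 43.9% to 47.9% under other scalings. The median difference of all probe sets from keratocyte culture was -0.12 with the deposited signals and 0.04 to 0.05 rescaled.

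Some differences changed sign, and the cause was not tested. Those of Cd34 (-0.0187 with array quality weights), Col6a1 (-0.19 with the median over its probe sets) and Mki67 (-0.21 with array quality weights) were not called in either form, nor was that of Acta2 from keratocyte culture (0.078 with median centring and 0.0864 rescaled to a trimmed mean of 150). Leaving out 1 array gave -0.0023 to 0.32 for Cd34, -0.13 to 0.25 for Col6a1 and -0.22 to 0.24 for Mki67. Crygd was -1.91 with the median over its probe sets. In the adult comparison not every array correlated best with its own replicate number, and the block gave 2818 calls. The number of arrays limits precision, and signals near the background limit carry little order.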

Other observations

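Genes outside the lists, chosen after their values were seen, showed further differences between myofibroblast culture and adult stroma. Lgals1, a lectin that binds matrix sugars, had 5921, 5585 and 5943 in myofibroblast arrays and 403, 681 and 424 in adult arrays, without overlap, and rose by 3.53 on the log2 scale (SE 0.16, adjusted p = 7.59e-10). S100a4, a calcium-binding protein found in fibroblasts, rose by 3.03 (SE 0.24, adjusted p = 2.18e-07). Aebp1, which binds collagen, was at least 6.1-fold higher (adjusted p = 9.75e-07), and Pdgfrb, a receptor for platelet-derived growth factor, at least 2.28-fold (adjusted p = 5.3e-08). Nes, an intermediate filament protein of precursor cells, Klf6, a zinc finger factor, Vegfa, the growth factor of vessels, and Wnt5a, a secreted ligand, were at least 6.5-fold, 4.87-fold, 1.87-fold and 2.31-fold higher (adjusted p = 2.43e-05, 1.72e-08, 5.33e-08 and 1.74e-07).

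In the other direction, the stress-induced chaperone Hspa1a had 1.33, 1 and 2.54 in myofibroblast arrays and 1646, 1494 and 1011 in adult arrays. It was bright in every adult array and at least 9.83-fold lower in culture (adjusted p = 4.78e-10). Its neighbour Hspa1b, a near-identical copy whose probe sets may share targets with it, was at least 23.1-fold lower (adjusted p = 6.76e-09). Dbp, an output gene of the circadian clock, and Adh1, an alcohol dehydrogenase that also acts on retinol, were at least 3.42-fold and 15.5-fold lower (adjusted p = 7.41e-05 and 0.000273).

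Among the genes with the highest fitted differences, Chil1, a secreted chitinase-like protein, averaged 1617 ± 1699 in myofibroblast culture and 3.02 ± 3.5 in adult stroma, and Cyp1b1, a cytochrome linked to eye development, averaged 539.8 ± 352 and 1 ± 0 in the same order (adjusted p = 9.84e-07 and 1.14e-06). Ccr8, a chemokine receptor, averaged 1127 ± 42.3 and 1 ± 0, and Fgf17, a fibroblast growth factor, 662 ± 218 and 4.9 ± 6.75 (adjusted p = 2.07e-07 and 4.19e-09). A few marker genes went against their lists. Crygd, a lens crystallin, averaged 1626 ± 535 in myofibroblast culture and 187 ± 78.2 in adult stroma on its brighter probe set, while its other probe set differed by -6.85 on the log2 scale. S100a9, a protein of neutrophils, averaged 448 ± 41.2 and 206 ± 145 in the same order (adjusted p = 0.0224), and its call was lost when any of 4 arrays was left out, namely adult stroma replicates 1 and 3 and myofibroblast replicates 2 and 3 (the adjusted p reached 0.105 over the arrays left out).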
